A study of Mus musculus with 37 samples.

Results

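The 9 genes Dsc2, Dsc3, Dsg2, Dsg3, Pkp1, Pkp3, Dsp, Jup and Perp encode parts of the desmosome and were followed in whole-transcriptome sequencing of mouse ureter and bladder. They were taken by symbol, with earlier results of these data known, and are 9 of the 24421 gene symbols in the deposited table. All 37 libraries were used. The mice were wild-type female BALB/c animals, and the treated ones drank water with 0.05% BBN, a nitrosamine carcinogen that gives rise to urothelial cancer. By the study's methods BBN was started at 6 to 7 weeks of age and the animals were euthanized after 17 to 20 weeks of it, while the labels give 18 weeks. UT (n = 11) is the side of the upper urinary tract that carried cancer, UN (n = 7) the side of treated mice without cancer, and BB (n = 10) the bladder of treated mice. U (n = 6) and B (n = 3) are the ureters and bladders of mice given tap water. The 28 treated libraries came from 10 mice and the 9 control libraries from 3 mice, with both ureters of each control mouse in U. UT 5R and UT 5L are the right and left ureter of a single mouse, and 7 mice gave both a UT and a UN library. Every tissue was sequenced in bulk, so fewer cells of a type and less RNA per cell cannot be told apart.

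A desmosome is a cell-to-cell junction that anchors keratin filaments of neighboring epithelial cells to each other. Its desmosomal cadherins, the desmocollins (Dsc) and desmogleins (Dsg), meet their partners outside the cell. Inside, their tails bind the armadillo proteins plakoglobin (Jup) and the plakophilins (Pkp), which in turn hold desmoplakin (Dsp), the link to keratin. Dsg2, Dsc2 and Pkp3 are found in most epithelia with desmosomes, whereas Dsg3, Dsc3 and Pkp1 are known chiefly from stratified epithelia such as epidermis. Perp is a tetraspan membrane protein needed for stable desmosomes in stratified epithelium and a transcriptional target of p53 and p63. The urothelium is itself layered, with basal, intermediate and umbrella cells, and uroplakins mark the umbrella cells.

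On GRCm38, with the gene models of GENCODE vM21, the 4 cadherin genes lay together on chromosome 18, from the start of Dsc3 at 19960930 to the end of Dsg2 at 20604521. Perp was on chromosome 10 (18845020 to 18857073), Pkp3 on chromosome 7 (141078218 to 141090510) and Pkp1 on chromosome 1 (135871395 to 135919207). Gm16090, an antisense gene, overlaps exons of Dsg2, and Gm10129, a gene model on the opposite strand, overlaps Dsp in the same way. Gm36938 lies in an intron of Pkp1, and none of these overlapping genes is in the table. The library kit does not mark strand, so reads from Dsg2 and Dsp cannot be told apart from those of their overlapping genes.

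Depth ranged from 12980008 to 18793560 estimated counts per library in U, from 4675081 to 14973904 in UN, from 9724542 to 16735797 in UT, from 14348701 to 16617435 in B and from 3557697 to 15104379 in BB. Several libraries stood apart from their group. UN 2 held little epithelial RNA: the 10 genes of an epithelial reference list (Epcam, Cdh1, Esrp1, Esrp2, Grhl2, Cldn7, Spint1, Spint2, Ap1m2 and Rab25) summed to 38.0 CPM (counts scaled to the library total), against 302 to 553 CPM in U and a median of 1260 CPM in UN, and 5 of the 10 passed 1 CPM. Its 5 uroplakins summed to 8.77 CPM and its 5 adipocyte markers to 21310 CPM. UN 6 was the shallowest ureter library. UT 9 was the UT library nearest to U, with a reference sum of 519 CPM and an adipocyte sum of 13420 CPM (UT median 4072 CPM). It is absent from the study's own clustering of the ureter libraries, and was kept here as its label gives it. UT 4 held kidney tubule RNA, with 10 tubule markers summing to 3037 CPM against group medians of 7.63 to 10.4 CPM in the ureter groups. BB 1, BB 3 and BB 4, like UN 6 and U 1R, had an RNA integrity number under 5 in the study's records. BB 6 carries a T in its library name although its label says only bladder.

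Perp was the most abundant of the 9 mRNAs per unit of length, and Jup the next, in all 5 groups. Divided by exon length, the mean level of Perp was 67.7 CPM per kb in U, 181 in UN, 311 in UT, 407 in B and 519 in BB. Jup ran from 15.7 CPM per kb in U to 75.6 in BB. At the other end, Dsg3 was the least abundant member in U (0.0508 CPM per kb) and in B (0.0342), where it made up 0.0542% and 0.00664% of the members' summed level per kb. In BB the share of Dsg3 was 2.61%, and its level, 19.9 CPM per kb, was above that of Dsg2, 10.4 CPM per kb. In B the order of these desmogleins was the other way, with Dsg2 at 25.9 CPM per kb. Dsc3 was the least abundant member in UN, UT and BB.

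**Figure D1:**
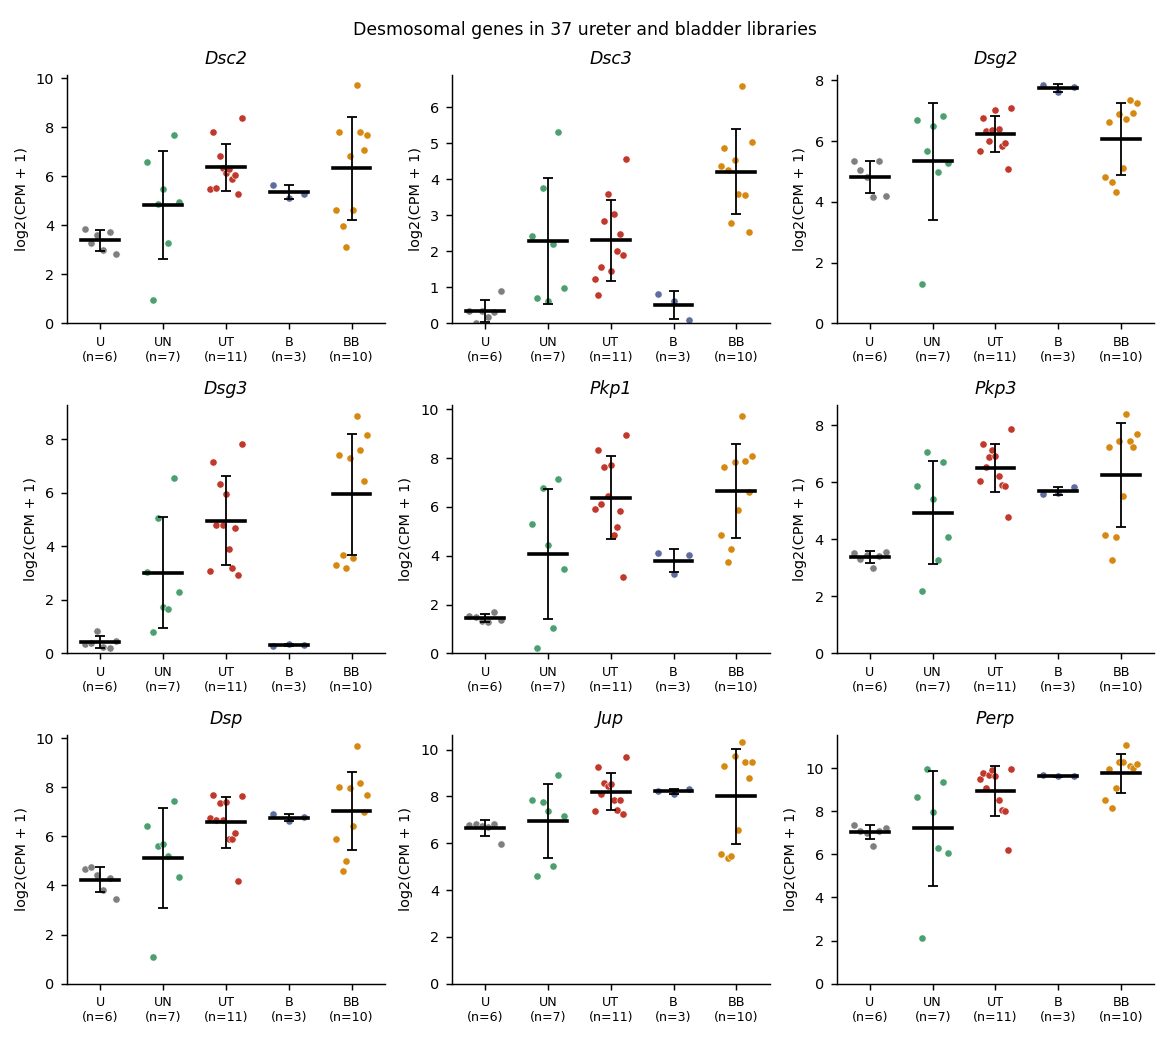
Level of each desmosomal gene as log2(CPM + 1) on the y axis, 1 point per library, in untreated ureter (U), noncancerous (UN) and cancerous (UT) ureter of BBN-treated mice, untreated bladder (B) and BBN bladder (BB). The black bar is the mean and the whisker the SD. Dsg3 lies near 0 in all U and B libraries and spreads widely in the BBN groups, and Dsg2 is highest in B.

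Dsg3, a desmoglein of the lower layers of stratified epithelium, was scarce without BBN. It lay between 0.154 and 0.798 CPM in U, with a median of 0.299 CPM, and at 0.209, 0.266 and 0.241 CPM in B 1, B 2 and B 3. The B values rest on 3 to 4 counts per library (11 in all, exact 95% Poisson interval of their level 0.119 to 0.428 CPM, which covers counting error only). In UN, Dsg3 ran from 0.731 CPM (UN 2) over a median of 3.97 to 93.7 CPM (UN 7), in UT from 6.54 (UT 9) over 26.6 to 223 CPM (UT 10), and in BB from 8.09 (BB 4) over 121 to 462 CPM (BB 7). All 11 UT libraries lay above all 6 of U, and all 10 of BB above all 3 of B. Among genes with a mean of at least 1 CPM, the former held for 15.5% of 14894 and the latter for 5.3% of 15857.

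Dsc3, the desmocollin of stratified epithelium, was likewise low in U and B. Its level was 0 to 0.846 CPM in U (median 0.249, 27 counts in all) and 0.767, 0.533 and 0.0602 CPM in B 1, B 2 and B 3 (20 counts in all). In UN it ran from 0.547 CPM (UN 4) over 3.64 to 38.9 CPM (UN 7), in UT from 0.720 (UT 2) over 2.99 to 22.8 CPM (UT 10), and in BB from 4.83 (BB 9) over 18.9 to 95.0 CPM (BB 7). UT 2 was below the highest U library, while all BB libraries lay above B, as held for 5.3% of genes with a mean of at least 1 CPM.

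Dsg2 went another way in the bladder. This broadly expressed desmoglein stood at 228, 195 and 220 CPM in B 1, B 2 and B 3, and at 19.1 (BB 4) to 165 CPM (BB 8) in BB, with a median of 101 CPM. Every BB library was below every B library. That is no mark of Dsg2, since the same held for 13.5% of the 15857 genes with a mean of at least 1 CPM. In the ureter its level was 17.04 to 39.8 CPM in U (median 29.5), 1.46 (UN 2) to 114 CPM (UN 7) in UN (median 50.4) and 32.9 (UT 9) to 136 CPM (UT 10) in UT (median 79.8). UT 9 alone of the UT libraries overlapped U. Dsc2, the broadly expressed desmocollin, lay at 6.05 to 13.6 CPM in U (median 9.90), at 0.914 to 207 CPM in UN (median 30.2) and at 37.8 to 334 CPM in UT (median 69.5). UT lay wholly above U for Dsc2, as it did for 15.5% of genes with a mean of at least 1 CPM. It was at 49.6, 33.4 and 38.2 CPM in B 1, B 2 and B 3 and from 7.67 (BB 4) over 122 to 836 CPM (BB 7) in BB, where 6 libraries lay above B and 4 below it.

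Of the armadillo members, Pkp1 is the plakophilin of stratified epithelium. Its level was 1.43 to 2.23 CPM in U (median 1.67), 0.183 (UN 2) to 139 CPM (UN 7) in UN (median 20.8) and 7.64 (UT 9) to 486 CPM (UT 10) in UT (median 67.7). In B 1, B 2 and B 3 it was 16.4, 8.53 and 15.4 CPM, and in BB 12.4 (BB 3) to 835 CPM (BB 7) with a median of 147 CPM, and 9 of the 10 BB libraries lay above B. Pkp3, the plakophilin of most epithelia, was steady within U, at 6.94 to 10.8 CPM, and within B, at 47.3, 48.2 and 56.3 CPM. It ran from 3.56 to 130 CPM in UN (median 41.1), from 26.6 to 231 CPM in UT (median 90.9) and from 8.71 to 337 CPM in BB (median 149).

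Jup, which encodes plakoglobin, an armadillo protein shared with adherens junctions, lay at 62.4 to 114 CPM in U (median 107), at 23.2 (UN 2) to 484 CPM (UN 7) in UN (median 166) and at 152 (UT 9) to 815 CPM (UT 10) in UT (median 272). UT lay wholly above U for Jup, as it did for 15.5% of genes with a mean of at least 1 CPM. Dsp, the plakin that ties the plaque to keratin, was at 10.03 to 25.7 CPM in U (median 19.6), at 1.10 (UN 2) to 171 CPM (UN 7) in UN (median 47.8) and at 17.2 (UT 9) to 205 CPM (UT 2) in UT (median 101). In the bladder, Jup was at 299, 278 and 323 CPM and Dsp at 118, 96.6 and 108 CPM in B 1, B 2 and B 3. BB spread around these, from 40.8 (BB 3) to 1297 CPM (BB 7) for Jup and from 23.1 (BB 3) to 830 CPM (BB 7) for Dsp.

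The promoters of Jup and Dsp, both called higher in UT, are shown because the promoter table used here had entries for these 2 of the 9 members. Each runs from 250 bases before to 50 bases after the RefSeq start (GRCm38.p6), read 5′ to 3′ on the strand of the gene, with capitals for matches to the motifs searched below.
Jup (chr11:100397741-100398040, minus strand): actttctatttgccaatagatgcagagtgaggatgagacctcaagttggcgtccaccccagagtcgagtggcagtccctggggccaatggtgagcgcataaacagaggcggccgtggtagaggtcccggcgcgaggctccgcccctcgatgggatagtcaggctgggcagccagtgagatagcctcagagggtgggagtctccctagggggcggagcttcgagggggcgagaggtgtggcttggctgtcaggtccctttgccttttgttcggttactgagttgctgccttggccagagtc
Dsp (chr13:38151044-38151343, plus strand): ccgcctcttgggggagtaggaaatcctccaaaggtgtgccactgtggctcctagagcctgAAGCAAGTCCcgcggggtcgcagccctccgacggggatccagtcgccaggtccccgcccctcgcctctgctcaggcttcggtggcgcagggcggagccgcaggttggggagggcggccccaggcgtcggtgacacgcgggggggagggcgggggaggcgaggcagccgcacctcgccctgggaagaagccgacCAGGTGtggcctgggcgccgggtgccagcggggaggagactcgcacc
The motifs, searched on both strands, were those of AP-1 (TGANTCA), grainyhead-like factors (AACCNGTT), the E-box bound by Snail and Zeb factors (CACCTG), ETS (CCGGAAG), SP and KLF factors (GGGNGGGGC) and the p53 and p63 response element. The Jup window held none of these letters. The Dsp window held 1 match to a single arm of the p53 and p63 element, AAGCAAGTCC, at -190 to -181 from the start on both strands, and 1 E-box, CAGGTG on the plus strand, at 4 to 9. Of 32851 RefSeq promoter windows of this length, 8.36% held such an arm of the p53 and p63 element and 20.2% held the E-box, against 7.81% for AP-1, 2.09% for grainyhead-like factors, 8.86% for ETS and 17.01% for SP and KLF factors. The matches are a description of the sequence and not evidence of binding.

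Perp lay at 82.9 to 162 CPM in U (median 136), at 3.29 (UN 2) to 1011 CPM (UN 3) in UN (median 249.3) and at 72.0 (UT 9) to 1001 CPM (UT 10) in UT (median 710). UT 9 was below every U library and the other 10 UT libraries were above them. In B 1, B 2 and B 3 Perp was at 809, 785 and 790 CPM, and in BB at 281 (BB 3) to 2182 CPM (BB 7) with a median of 1054 CPM. Within most groups the extremes fell on the same few libraries. UT 10 was the highest UT library for 8 of the 9 members and UT 9 the lowest for 8, UN 7 was the highest of UN for 7 and UN 2 the lowest for 8, and BB 7 was the highest of BB for 8.

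All 7 members with enough counts in U to be compared rose in the cancerous ureter, and Dsg3 and Dsc3, scarce in U, were called higher as well. In UT against U, edgeR's quasi-likelihood test called 9 of 9 higher and 0 lower at a false discovery rate (FDR, the adjusted p) under 0.1 and at least a 2-fold difference, where 18.7% of the 15361 genes tested were called higher and 12.5% lower. Dsg3 and Dsc3, too scarce in U and B to pass the filter on low counts there, passed it through the BBN groups alone, here as in UN against U and BB against B, so their direction in these counts was fixed by the filter and their values are given as a description. The median log2 fold change was 2.33 over the other 7 members and 0.11 over all genes tested. Of these 7, Pkp1 had the largest log2 fold change, 6.06 ± 0.86 (SE; adjusted p = 4.6e-05). Dsg3 stood at 6.96 ± 1.02 and Dsc3 at 3.94 ± 0.84. Pkp3 (3.16 ± 0.38) and Dsc2 (3.14 ± 0.50) followed, then Dsp (2.33 ± 0.42), Perp (1.92 ± 0.44), Jup (1.48 ± 0.34) and Dsg2 (1.20 ± 0.27). Beside this, 9 of the 10 epithelial reference genes were called higher (median log2 fold change 2.09), all 5 adipocyte markers lower (median -2.62), 6 of 8 smooth muscle markers lower (median -1.64) and 5 of 6 immune markers higher (median 2.40). The reference summed to 519 to 4115 CPM in UT. With the reference as a covariate, 3 members stayed called higher, Dsg3 (3.20 ± 0.84), Pkp1 (1.64 ± 0.54) and Pkp3 (1.08 ± 0.25), and Perp was called lower (-1.08 ± 0.27), where 7.39% of all genes were called higher and 0.885% lower. The other 5 lost their calls, Dsc3 (2.65 ± 1.07, adjusted p = 0.177) and Dsc2 (1.28 ± 0.50, adjusted p = 0.162) as well as Dsg2 (-0.16), Dsp (-0.30) and Jup (-0.03). Without UT 9 all 9 members were still called higher. By summed CPM, only UT 9 of the UT libraries lay within the range of U. The covariate was the mean log2(CPM + 1) of the same 10 genes, so this fit may carry it across a gap between the groups.

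In the noncancerous ureter of treated mice, 3 of the 7 members with enough counts in U rose, Pkp1, Dsc2 and Pkp3. All 3 calls were lost with the mouse as a random effect. In UN against U, edgeR called 5 of the 9 members higher, Pkp1 (log2 fold change 4.44 ± 0.98, SE), Dsc2 (2.29 ± 0.68), Pkp3 (2.23 ± 0.58) and, by way of the filter, Dsg3 (5.48 ± 1.05) and Dsc3 (4.61 ± 1.05), and 0 lower, where 10.5% of the 14883 genes tested were called higher and 2.54% lower. The median was 1.44 over the 7 members and 0.08 over all genes tested. Dsp (1.44 ± 0.59, adjusted p = 0.123), Perp (1.21 ± 0.73), Dsg2 (0.90 ± 0.52) and Jup (0.63 ± 0.43) did not pass. Dsp was called by DESeq2 (1.44, adjusted p = 0.0638, 10.5% of all genes higher) and in a single fit of the 24 ureter libraries (1.47, adjusted p = 0.0936, 12.4% higher). UN 2 and UN 6 were the lowest of UN in most members. Without UN 2 alone, or without UN 2 and UN 6 together, 8 members were called higher (11.9% and 11.8% of all genes), Dsp (1.66 ± 0.38 without both), Perp (1.61 ± 0.49) and Dsg2 (1.17 ± 0.26) among them, and Jup stayed uncalled. Without U 2L, Dsc2 (2.21, adjusted p = 0.101) was no longer called. Other exclusions lowered values, with Perp at 0.57 without UN 3, and Jup at 0.29 and Dsc2 at 1.64, still called, without UN 7. The 6 U libraries are 3 mice. When limma took the mouse as a random effect, 0 members were called (Dsg3 4.37 ± 1.76, adjusted p = 0.225), with 28 genes higher and 42 lower among all tested and 2616 at an unadjusted p under 0.05. UT against U and UN against U share the U libraries. Of the epithelial reference, 1 of 10 genes was called higher (Epcam, median of the list 1.09).

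**Figure D2:**
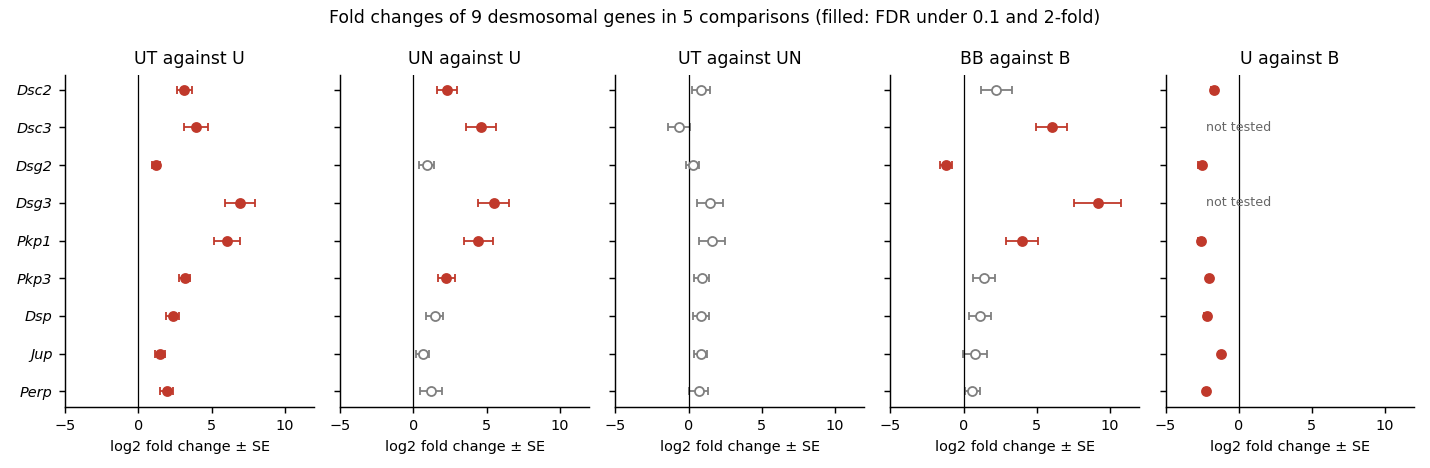
Log2 fold change with its SE (x axis) of each member (y axis) in the 5 comparisons, from edgeR fits of the libraries compared. Filled red points passed FDR under 0.1 and 2-fold, open gray points did not, and Dsc3 and Dsg3 were not tested in U against B. All 9 members are filled in UT against U and 0 in UT against UN.

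Between the cancerous and the noncancerous side, no member passed. In UT against UN, edgeR called 0 of 9 members, where 0% of the 15158 genes tested were called higher and 0% lower and 2810 had an unadjusted p under 0.05. DESeq2 called 0 members as well, with 250 genes higher and 985 lower among all tested, and without UN 7 edgeR called 170 genes higher and 425 lower with 0 members among them. The members' median log2 fold change was 0.84 against -0.01 over all genes tested. Pkp1 had the largest value (1.60 ± 0.89, SE, adjusted p = 0.321) and Dsc3 the only negative one (-0.67 ± 0.74, adjusted p = 0.612), which turned to 0.27 without UN 7. Leaving out UN 7 also moved Dsg3 from 1.47 to 2.54 and Dsc2 from 0.84 to 1.48, with neither called. Pkp1 is also on the study's own list of genes that differed between UT and UN, which was drawn from these libraries and is no independent evidence. The ranges of UT and UN overlapped in every member. That is no mark of the members, since UT lay wholly above UN for 1 of 15015 genes and wholly below for 0. In the 7 mice with both sides, Dsc2, Dsg3, Pkp3, Dsp, Jup and Perp were higher in UT in 5, Pkp1 and Dsc3 in 4 and Dsg2 in 3. Mouse 7 was lower in UT for all 9 members, and mouse 2, whose noncancerous library is UN 2, was higher in UT for all 9, by up to 8.09 on the log2 scale (Pkp1). The SE of these values, from 0.43 for Dsg2 to 0.89 for Pkp1, bounds what the comparison could show.

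**Figure D3:**
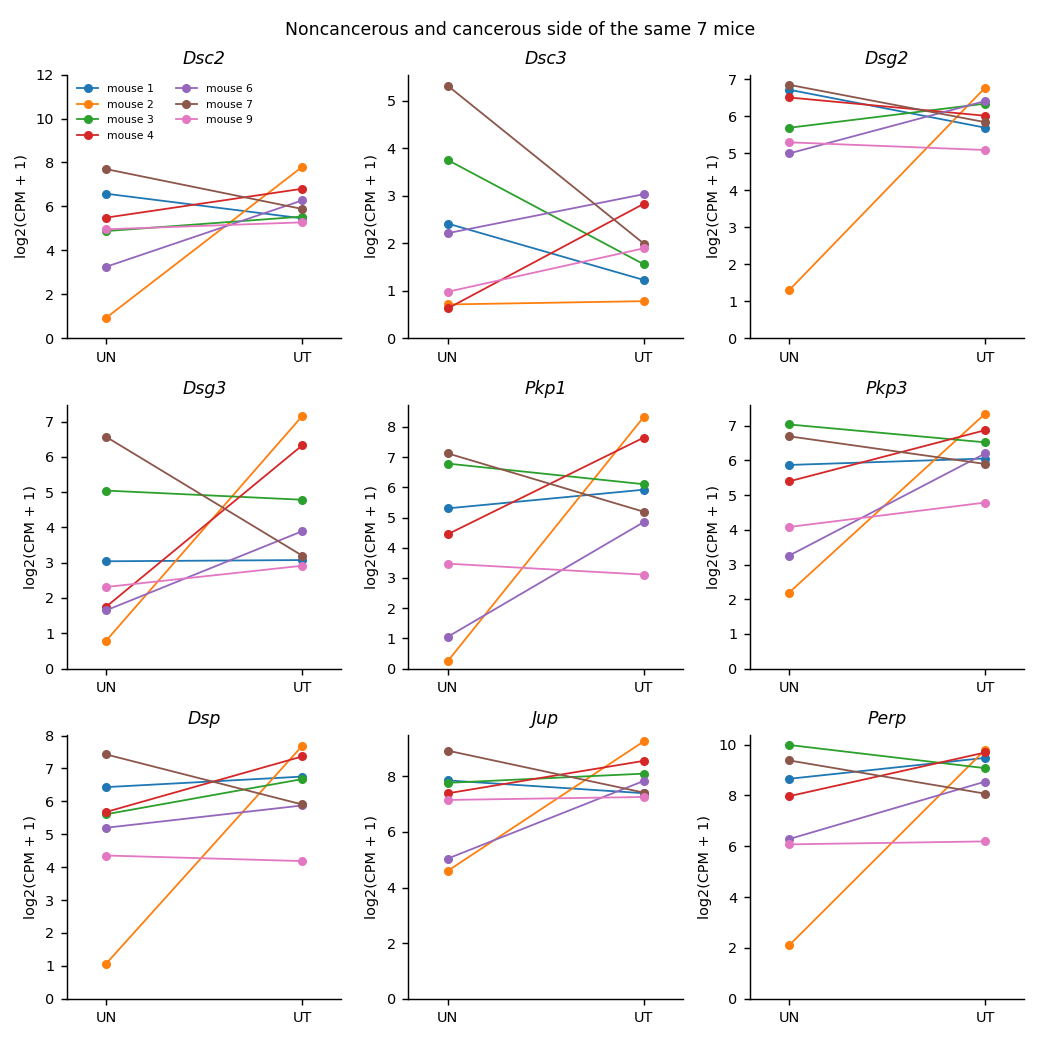
Level of each member, as log2(CPM + 1) on the y axis, in the noncancerous (UN) and cancerous (UT) side of the 7 mice that gave both, 1 line per mouse. Lines run up and down in every panel, with mouse 2 rising most steeply in most panels and mouse 7 falling in all.

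In the bladder, Pkp1 rose with BBN and Dsg2 fell, both by calls that were lost when any single B library was left out, and Dsg3 and Dsc3, near absent from B, were found in every BB library. In BB against B, edgeR called Pkp1 (log2 fold change 3.98 ± 1.09, SE, adjusted p = 0.0316) and, by way of the filter, Dsg3 (9.17 ± 1.60) and Dsc3 (6.03 ± 1.06) higher and Dsg2 (-1.19 ± 0.41, adjusted p = 0.0903) lower, where 7.61% of the 18064 genes tested were called higher and 5.74% lower. The fitted folds of Dsg3 and Dsc3 rest on 11 and 20 counts in B and depend on edgeR's prior count. The median over the other 7 members was 1.12 against 0.24 over all genes tested, and RLE normalization moved the latter to 0.35. Dsc2 (2.23 ± 1.07), Pkp3 (1.41 ± 0.76), Dsp (1.12 ± 0.74), Jup (0.75 ± 0.82) and Perp (0.60 ± 0.49) did not pass. The epithelial reference was at 2681 to 2944 CPM in B and 501 to 4852 CPM in BB, with 0 of its 10 genes called (median -0.05). Fibroblast markers moved with the groups, with 3 of 6 lower in BB, the collagens Col1a1 (-2.93 ± 0.65), Col1a2 (-2.37 ± 0.50) and Col3a1 (-1.99 ± 0.68), and a median of -1.63. Their sum was 4908 to 7129 CPM in B and 740 to 5253 CPM in BB, and their part in the members' changes was not tested. Dsg2 was not called without BB 2 (-1.17), B 1 (-1.16), B 2 (-1.27) or B 3 (-1.17), and Pkp1 not without B 1 (4.14), B 2 (3.73) or B 3 (4.09).

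BB 1, BB 3 and BB 4, the bladders of low RNA integrity, were the low end of several members. Jup was at 40.8 to 45.1 CPM in them and at 92.6 to 1297 CPM in the other 7, Pkp3 at 8.71 to 16.6 against 45.2 to 337 CPM, and Perp at 281 to 536 against 1004 to 2182 CPM. Dsc3 was not set apart, at 5.88 to 19.9 against 4.83 to 95.0 CPM. Their epithelial reference was low as well, at 501 to 855 CPM against 1510 to 4852 CPM, and the part of either in the members' levels was not tested. Without these libraries 6 members were called higher in BB, where 11.2% of all genes were, with Dsg3 and Dsc3 counted by way of the filter. Dsc2 (2.68 ± 0.84), Pkp3 (1.84 ± 0.42) and Dsp (1.50 ± 0.59) were added, and Dsg2 (-0.89 ± 0.28, adjusted p = 0.0446) fell short of the 2-fold threshold.

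Without BBN, the ureter held less of the 7 members tested than the bladder. In U against B, edgeR called 7 of the 7 members tested lower and 0 higher, where 14.3% of the 15328 genes tested were called lower and 15.7% higher. Pkp1 (-2.57 ± 0.22) and Dsg2 (-2.53 ± 0.22) had the largest differences, followed by Perp (-2.21 ± 0.17), Dsp (-2.15 ± 0.21), Pkp3 (-2.04 ± 0.14), Dsc2 (-1.68 ± 0.21) and Jup (-1.19 ± 0.14), and in each of the 7 every U library lay below every B library in CPM. That is no mark of the members, since the same held for 48.9% of the 14299 genes with a mean of at least 1 CPM, and CPM is not adjusted for library composition as the fits are. Dsg3 and Dsc3 had too few counts to be tested. The median was -2.15 over these 7 members and -0.02 over all genes tested. All 10 epithelial reference genes were lower in U too (median -2.51), as were 5 of 8 smooth muscle markers (median -1.69) and 2 of 6 fibroblast markers (median -0.81), and all 5 adipocyte markers were higher (median 6.57). The reference sums of U and B do not overlap, so epithelial content and organ cannot be told apart here, and with the reference as a covariate 0 members and 0 genes were called (763 of 15328 genes at an unadjusted p under 0.05). B enters this comparison and BB against B alike.

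The response to BBN was not shown to differ between the organs for any member. In the interaction of BBN and organ, which sets UN minus U against BB minus B, edgeR called 0 of 9 members, where 1.52% of the 18799 genes tested were called higher and 0.543% lower and 2250 had an unadjusted p under 0.05. Dsg2 (2.08 ± 0.71, SE, adjusted p = 0.183) and Dsg3 (-3.68 ± 1.69, adjusted p = 0.387) had the lowest p-values, and DESeq2 called both (Dsg2 1.996, adjusted p = 0.0824, and Dsg3 -3.78, adjusted p = 0.0892), where it called 1.95% of all genes higher and 2.08% lower.

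Within the plakophilins, the ratio of the stratified-type to the broadly expressed member was higher in UT than in U and in BB than in B. That of the desmogleins was higher too, but is given as a description, since Dsg3 was scarce in U and B. The log2 ratio of Dsg3 to Dsg2, taken in each library from CPM + 0.5, averaged -5.06 in U (SD 0.69, n = 6), -2.43 in UN (SD 1.87, n = 7), -1.30 in UT (SD 1.27, n = 11), -8.18 in B (SD 0.17, n = 3) and -0.14 in BB (SD 1.24, n = 10). In 5 of the 10 BB and 3 of the 11 UT libraries Dsg3 exceeded Dsg2 in CPM, not divided by exon length, and in 0 of the other groups. BB exceeded B by 8.04 (exact permutation test, two-sided, p = 0.0035, adjusted p = 0.0131 over 15 ratio tests), UT exceeded U by 3.76 (exact permutation test, p = 8.08e-05, adjusted p = 0.00121) and UN exceeded U by 2.63 (exact permutation test, p = 0.00874, adjusted p = 0.0219). With 1 value per mouse the last was not past the threshold (exact permutation test, p = 0.0417, adjusted p = 0.104), while UT against U (adjusted p = 0.0175, exact permutation test) and BB against B (adjusted p = 0.0175, exact permutation test) were. In U and B the ratio is set largely by the pseudocount, since Dsg3 was below 0.5 CPM in most of those libraries.

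The ratio of Pkp1 to Pkp3 averaged -2.15 in U (SD 0.23, n = 6), -1.01 in UN (SD 1.14, n = 7), -0.13 in UT (SD 0.96, n = 11), -1.93 in B (SD 0.47, n = 3) and 0.41 in BB (SD 0.48, n = 10). It was above 0 in 9 of 10 BB libraries, 4 of 11 UT and 1 of 7 UN libraries and in 0 of U and B. UT exceeded U by 2.02 (exact permutation test, p = 0.000646, adjusted p = 0.00485) and BB exceeded B by 2.34 (exact permutation test, p = 0.0035, adjusted p = 0.0131), and both held with 1 value per mouse (exact permutation test, adjusted p = 0.021 and 0.0175). UN and U differed by 1.14 (exact permutation test, p = 0.0367, adjusted p = 0.0612), and with 1 value per mouse this had p = 0.142 (exact permutation test, adjusted p = 0.266). U and B differed by less than their spread (-0.22, exact permutation test, p = 0.357).

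For Dsc3 to Dsc2 no difference between UT and U was shown. The ratio averaged -3.71 in U (SD 0.74, n = 6) and -4.24 in UT (SD 1.24, n = 11), a difference of -0.52 within the spread (exact permutation test, p = 0.406), whose sign turned with a pseudocount of 0.1 CPM (0.48). UN stood at -2.73 (SD 1.97, n = 7). In the bladder the ratio rose from -5.49 in B (SD 0.56, n = 3) to -2.13 in BB (SD 1.72, n = 10) (difference 3.35, exact permutation test, p = 0.00699, adjusted p = 0.021). The 3 bladders of low RNA integrity had the highest ratios of BB (BB 3 at 0.29, BB 1 at -0.23 and BB 4 at -0.36), and without them BB averaged -3.00, a difference of 2.48 (exact permutation test, p = 0.0167, adjusted p = 0.0383). UT 2, at -7.51, had the lowest ratio of all libraries, with Dsc3 at 0.720 CPM and Dsc2 at 222 CPM.

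**Figure D4:**
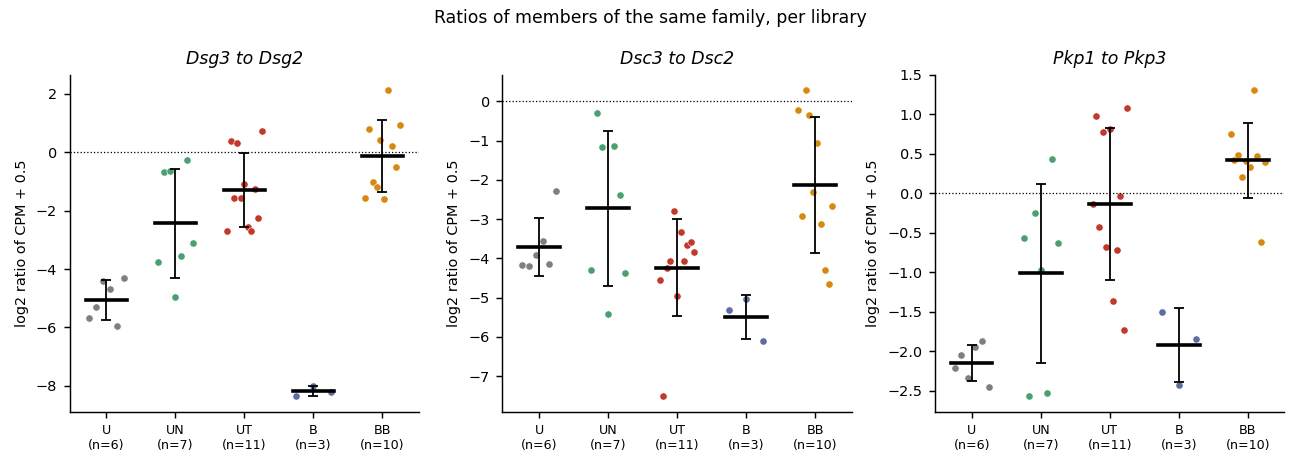
Log2 ratio of CPM + 0.5 within each library (y axis) for Dsg3 to Dsg2, Dsc3 to Dsc2 and Pkp1 to Pkp3 in the 5 groups, 1 point per library, with the mean as a bar and the SD as a whisker. The dotted line marks equal CPM, which 5 BB libraries pass for Dsg3 to Dsg2 and 9 for Pkp1 to Pkp3. CPM is not divided by exon length here, which is 5024 bases for Pkp1 and 3616 for Pkp3.

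Set against the epithelial reference, the members differed in how far their levels followed it. The reference genes themselves did not all move alike. Their log2 fold changes ran from 0.77 (Esrp2) to 3.88 (Epcam) in UT against U and from -1.49 (Esrp2) to 1.39 (Epcam) in BB against B. A change per reference may thus come from the reference, which was not tested. Per 1000 CPM of the epithelial reference, Dsp was at 42.1 ± 9.96 CPM in U (mean ± SD, n = 6), 44.9 ± 10.8 in UT (n = 11), 38.2 ± 3.21 in B (n = 3) and 71.2 ± 49.6 in BB (n = 10). Perp was at 299 ± 34.6, 235 ± 57.2, 283 ± 12.9 and 446 ± 190 in the same groups, and Jup at 235 ± 62.3, 149 ± 62.2, 106 ± 3.09 and 145 ± 89.2. Dsp lay close in U, UT and B, Perp was lower in UT than in U and B, and both had their highest mean and widest spread in BB. In UN (n = 7) Dsp was at 56.2 ± 42.3, Perp at 240 ± 123 and Jup at 228 ± 183. The Jup mean was raised by UN 2, at 611.3 on a reference of 37.97 CPM, and the UN median of Jup was 132.1. Dsg3 was at 0.814 ± 0.531 in U, 19.1 ± 16.3 in UT, 0.0851 ± 0.0129 in B and 39.0 ± 32.3 in BB, and at 14.0 ± 13.7 in UN. Pkp1 was at 3.99 ± 0.590 in U and 4.73 ± 1.38 in B, and at 25.2 ± 22.0 in UN, 47.3 ± 34.6 in UT and 59.0 ± 53.9 in BB. Dsg2 per reference was 63.8 ± 14.1 in U and 76.1 ± 4.31 in B, and 36.5 ± 13.0 in UT and 32.1 ± 7.73 in BB. UN was at 62.6 ± 33.2, with a median of 51.01 against 64.45 in U. Its highest value, 123.9, was that of UN 6, whose reference summed to 248.6 CPM. With the reference as a covariate in BB against B, edgeR called Dsc2 (2.29 ± 0.56), Pkp1 (4.10 ± 0.55), Pkp3 (1.58 ± 0.25) and Dsp (1.30 ± 0.44) higher and Dsg2 (-1.01 ± 0.19) lower, where 13.4% of all genes were called higher and 9.01% lower. Dsc3 (6.11 ± 1.03) and Dsg3 (9.19 ± 0.75) were called higher by way of the filter on low counts, which fixed their direction.

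**Figure D5:**
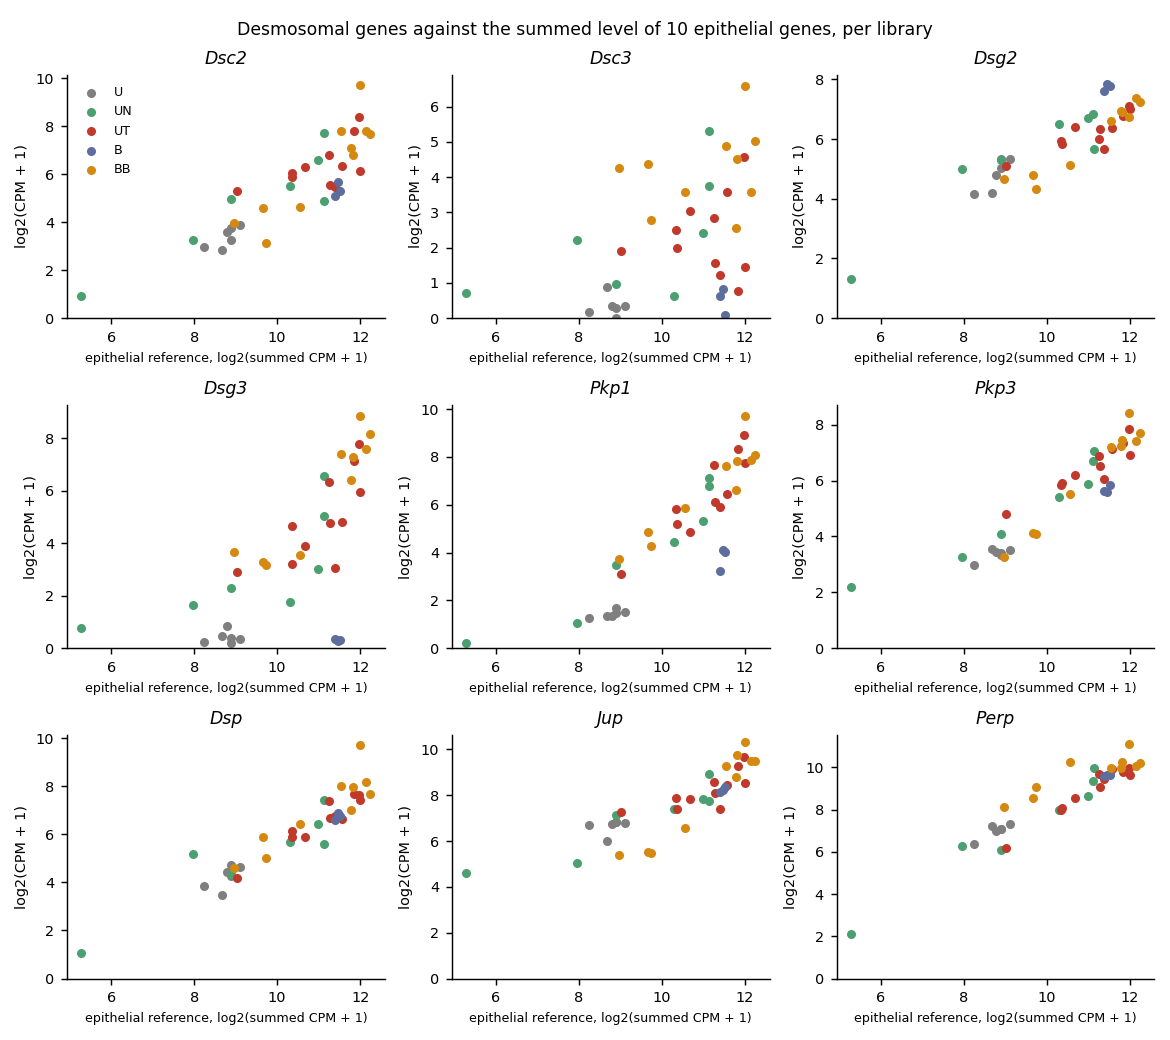
Level of each member, log2(CPM + 1) on the y axis, against the summed CPM of 10 epithelial reference genes, log2 on the x axis, 1 point per library and 1 color per group. For Dsp, Jup and Perp the untreated bladders lie among the BBN libraries of like reference level, for Dsg3, Dsc3 and Pkp1 below most of them, and for Dsg2 above them. UN 2 is the point at the far left.

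Ordered by mean log2(CPM + 1), U was the lowest group for 8 members and B for Dsg3. BB was the highest for Dsc3, Dsg3, Pkp1, Dsp and Perp, UT for Dsc2 and Pkp3, and B for Dsg2 and Jup. The neighbors were set by the same values, and libraries were taken as independent although the 6 U libraries are 3 mice. Of 36 two-sided exact permutation tests of neighbors, 7 had an unadjusted p under 0.05 and 3 an adjusted p under it. Those 3 were UT below BB for Dsc3 (difference 1.90), UT below B for Dsg2 (1.52) and U below UN for Dsg3 (2.60), each with an adjusted p of 0.049 by the exact permutation test. With the mouse as a random effect in limma, Dsg3 was not called in UN against U. U below B for Pkp1 (2.35, exact permutation test, adjusted p = 0.107) and UN below UT for Dsg3, Pkp1 and Dsp (exact permutation test, adjusted p = 0.235 each) did not pass. The other neighbors did not differ beyond their spread, UT and BB among them for Dsc2, Dsg2, Dsg3, Pkp1, Pkp3 and Jup.

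Other genes of the desmosome and its plaque, taken as a list of 10, moved in part with the members. In UT against U, 4 were abundant enough to be tested and 3 rose (18.7% of all genes), the plaque linkers Ppl (1.87 ± 0.44) and Evpl (1.07 ± 0.34) and the plakophilin Pkp2 (1.25 ± 0.44), and Pkp4 was at 0.69 ± 0.26. In UN against U, 0 of the 4 passed, with a median of 0.59. In BB against B, 4 of 10 were called higher (7.61% of all genes), Dsc1, Dsg1a, Dsg1b and Dsg1c, cadherins of the upper layers of stratified epithelium. With at most 2 counts each over the 3 B libraries they passed the filter on low counts through BB alone, so the count gives no support to a direction. Dsg1b lay at 0 to 0.0230 CPM in B and at 0.166 to 74.8 CPM in BB, and Dsc1 at 0 to 0.0697 CPM in B and 0.0685 to 26.7 CPM in BB, with BB 7 highest for both. Dsg1a, Dsg1b and Dsg1c are near-identical copies among which reads may have been split unevenly. In U against B, 3 of the 4 tested were lower (14.3% of all genes). BB 7 also held the most RNA of 5 epidermal markers (Krt1, Krt10, Krt2, Lor and Krt77), 745 CPM against a BB median of 38.1 CPM, and their part in its high levels was not tested.

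The counts of the next lists stand against 18.7% of all genes higher and 12.5% lower in UT against U, 10.5% higher in UN against U, and 7.61% higher and 5.74% lower in BB against B. With the mouse as a random effect, only 28 of 14883 genes were called higher in UN against U. The hemidesmosome, which anchors basal cells to the basement membrane, showed 6 of 9 genes higher in UT against U (median 2.15), with Col17a1 at 5.98 ± 0.65 and Lama3 at 3.97 ± 0.74. In UN against U 3 of 9 were higher, and in BB against B 1 of 9, a share near that of all genes, Col17a1 (3.53 ± 0.91). The adherens junction list had 4 of 10 genes higher in UT against U (median 0.74), among them the cadherins Cdh3 (3.93 ± 0.58) and Cdh1 (1.96 ± 0.44), and 0 of 10 in BB against B (median -0.16). Keratins of stratified epithelium, the filaments that desmosomes hold, rose in 6 of 6 genes in UT against U (median 7.40), in 5 of 5 tested in UN against U (median 6.42) and in 5 of 6 in BB against B (median 8.35), with Krt14 at 7.50 ± 0.68, 6.42 ± 1.17 and 8.08 ± 1.32. Krt5 was the gene of the list that did not pass in BB (1.22 ± 0.65), and Krt6b and Krt16 too passed the filter on low counts only through the BBN groups. Uroplakins went the other way, with 3 of 5 lower in UT against U (median -1.98) and 5 of 5 lower in BB against B (median -3.87). None of these lists had a gene called in UT against UN, where 0 of the 15158 genes tested were called at all.

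Over the 37 libraries, the members' levels moved together to different degrees. The 36 pairwise Pearson correlations of log2(CPM + 1) had a median of 0.81, from 0.25 between Dsc3 and Dsg2 to 0.95 between Pkp1 and Pkp3, and Dsc2 and Pkp3 (0.92) and Dsg3 and Pkp1 (0.92) were also close. These values describe libraries that share mice, groups and epithelial content. Among 15365 genes compared, 9 of the 10 whose pattern was most like the members' mean were Galnt3 (r = 0.97), Lad1 (0.95), Shroom3 (0.95), Mboat1 (0.95), Atp2c2 (0.95), Padi1 (0.95), Sowahb (0.95), Lama3 (0.95) and Col17a1 (0.95). For single members the most alike gene was Cd44 for Dsc2 (0.94), Tmprss11e for Dsc3 (0.87), Rab11fip1 for Dsg2 (0.95), Celsr1 for Dsg3 (0.95), Col17a1 for Pkp1 (0.97), Mboat1 for Pkp3 (0.97), Ehf for Dsp (0.95), Ptk7 for Jup (0.96) and Serinc2 for Perp (0.96).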

How the data were processed

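Total RNA of ureter and bladder was sequenced after SMARTer HT and Nextera XT library preparation on a DNBSEQ-G400RS instrument. The authors mapped the reads to GRCm38/mm10, and the submitters' processing notes name TopHat2 2.1.1 and Cuffdiff 2.2.1. The deposited table holds estimated counts per gene symbol, without normalization, of which 21.1% of the nonzero values were fractional. The annotation and the counting options were not given in the sources used here. Each column's name gave its library, and the values were rounded to whole numbers for testing. CPM is the count scaled to a library's deposited total, in the usual unit, and per-kb values use the exon length of GENCODE vM21. Intervals of counts cover counting error only, and the total of each library sets how far genes with few counts can be read.

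Each comparison was fitted on its own groups by the quasi-likelihood test of edgeR 4.0.16 (R 4.3.3, TMM, filterByExpr), since the common dispersion ran from 0.0232 in B to 0.608 in BB. Calls used the study's thresholds, Benjamini-Hochberg FDR under 0.1 over all genes tested and a fold change of at least 2, without the fold for the interaction. The SE of a log2 fold change is its size divided by the square root of F. Single values were compared with two-sided exact permutation tests in Python 3.11.15 with scipy 1.17.1, and 15 ratio tests, and 36 tests of neighboring groups, were each adjusted together. The procedure was tested on simulated counts with known changes. Libraries of the same mouse are separate tissues, and p-values take libraries as independent unless the mouse is named.

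UT and UN libraries of one number come from one mouse by their labels, as do U and B. For 7 such UT and UN pairs, deviations from the group means correlated with a median r of -0.0121 (range -0.134 to 0.606), against -0.00171 for 70 pairs of unlike mice. For 6 U and B pairs the median was -0.0351 (range -0.128 to 0.112), against -0.001335 for 12 pairs of unlike mice. No 2 libraries of a group agreed within sampling noise (lowest chi-square per degree of freedom 7.36).

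The members and gene lists were chosen with earlier results of these data known. The genes named are the members, the 10 genes most like their mean, the 1 gene most like each member, and genes of the lists. Of the 10, 1 gene is not reported here. Nectins and afadin were matched by older symbols. Promoter sequences, for 2 of the 9 members, are RefSeq's on GRCm38.p6. Alternatives were DESeq2 1.42.0, RLE normalization, no filter, single fits of more groups, limma 3.58.1 (voom with a variance per group, or the mouse as a random effect), the mouse as a block, the epithelial reference as a covariate, other pseudocounts, and leaving out libraries. Leaving out UN 2 and UN 6 together, and taking the ratios without the libraries of low RNA integrity, were chosen after seeing the data.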

Additional observations from a re-analysis of the deposited data

Results flagged for a closer look

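In 27 combinations of a member and a group of 4 to 10 libraries, the gap between the highest or lowest library and the next was set against the whole range, a test that by chance picks out about 1 in 20 groups. It picked out 3 libraries. Dsg2 in UN 2 was at 1.30 on the log2(CPM + 1) scale against 4.99 in the next library, the library in which the epithelial reference was also lowest. Jup in U 3L was at 5.99 against 6.70 in the next library. Perp in U 2L was at 6.39 against 6.99 in the next. With U 3L left out, and with U 2L left out, all 9 members were still called higher in UT against U, and without UN 2 the count of members called higher in UN against U went from 5 to 8.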

How the results depend on the processing

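The count of members called higher in UT against U was 9 under every alternative run except the epithelial reference as a covariate, which gave 3 higher and 1 lower and turned the sign of Dsg2 (-0.16), Dsp (-0.30), Jup (-0.0258) and Perp (-1.08). For UN against U the 5 became 0 with the mouse as a random effect, 6 by DESeq2 and in a single fit of the 24 ureter libraries (Dsp added), 8 without UN 2 and UN 6, and 4 to 8 with single libraries left out. Dsc3 fell under the filter on low counts in some of those fits. Perp turned negative there with voom and a variance for each group (-0.0312), under a random effect of the mouse (-0.0386) and with the covariate (-0.30). In UT against UN 0 members were called under every alternative. The covariate turned Dsc2 (-0.0433), Dsg2 (-0.50), Dsp (-0.28) and Perp (-0.54), leaving out UN 2 and UN 6 turned Dsg2 (-0.0154), and with single libraries left out Dsc3 ran from -1.18 to 0.27.

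In BB against B, 5 members were called higher by DESeq2 (22.9% of all genes), 6 with the covariate (13.4%) and 6 without the libraries of low RNA integrity (11.2%). Dsg3 and Dsc3 are in both counts of 6, by way of the filter. The 1 lower became 0 without those libraries and without the filter, and was 0 to 1 with single libraries left out. Jup turned to -0.0936 with voom and a variance for each group. In U against B the 7 lower became 0 with the covariate, which turned Dsc2 (1.12), Dsg2 (1.37), Dsp (0.75) and Perp (0.19). In the interaction DESeq2 called 1 higher and 1 lower, and Dsc2, at 0.0627, turned without BB 6 (-0.0606), without libraries of low RNA integrity (-0.11) and by DESeq2 (-0.0060), and ran from -0.11 to 0.18 with single B libraries left out. The cause of these changes was not tested.

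With the mouse as a replicate block, 0 members were called in UT against UN (Pkp1 1.27, Dsg3 1.20) and 7 lower in U against B, so the pairing changed no call of a member there. With 1 value per mouse, the ratio of Dsg3 to Dsg2 kept its difference of 2.63 for UN against U (adjusted p = 0.104, exact permutation test) and 3.12 for U against B (adjusted p = 0.375, exact permutation test, raw p = 0.25, the smallest that 3 pairs allow), and that of Dsc3 to Dsc2 1.77 for U against B (adjusted p = 0.375, exact permutation test). With a pseudocount of 0.1 CPM the last was 1.58 (adjusted p = 0.14, exact permutation test) and Dsc3 to Dsc2 in UT against U turned to 0.48, and with 1 CPM Pkp1 to Pkp3 in UN against U was 1.06 (adjusted p = 0.0398, exact permutation test), against adjusted p = 0.266 with 1 value per mouse and 1.37 (adjusted p = 0.0406, exact permutation test) without the libraries of low RNA integrity. Over all genes, UT against UN had 165 higher and 320 lower in a single fit of 37 libraries, and 170 and 425 without UN 7. Depth limits Dsg3 and Dsc3 in U and B, where a library held at most 15 counts of either.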

Other observations

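UT 5R and UT 5L, the cancers of the right and left ureter of a single mouse, differed in several members. Dsg3 was at 27.0 CPM in UT 5R and 60.5 CPM in UT 5L, Pkp1 at 85.3 and 211 CPM, and Dsc3 at 11.1 and 1.75 CPM, while Dsc2 was at 79.1 and 69.5 CPM and Jup at 347 and 375 CPM. With 1 library per side these differences have no replicate check. UN 7 was the noncancerous library richest in the members, with Dsg3 at 93.7 CPM and Pkp1 at 139 CPM, where the cancerous side of the same mouse, UT 7, had 8.19 and 35.6 CPM.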
